A study of Mus musculus with 6 samples.

Results

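This account covers 50 listed mouse genes of mitosis, the kinases, cyclins, kinesins, kinetochore and chromosome proteins that a dividing cell makes in G2 and M phase, in cells depleted of Id4. Members were the rows of the deposited gene table whose symbol is on the list. Of the 50, 49 were found by symbol among 25655 genes, and all 49 passed the filter on low counts. The listed gene Knl1 stands in the table under its older symbol Casc5. It was found by gene identifier and is described apart from the 49.

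All libraries come from Comma-Dβ, an established line of mammary epithelial cells from the mouse, used at passage 29. In the siID4 arm Id4 was targeted with a siGENOME SMARTpool. The NT arm was given the ON-TARGETplus Non-targeting pool. Both were used at 20 nM, with harvest at 48 hr. The pools come from different product lines in every library, so target and product line cannot be told apart. Each arm held 3 biological replicates, all of a single line, and libraries were made from polyA RNA.

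At mitosis entry, cyclin-dependent kinase CDK1 bound to cyclin B is switched on by CDC25 phosphatases. Aurora, Polo-like and checkpoint kinases then drive spindle assembly and hold anaphase until every kinetochore is attached, and the anaphase-promoting complex (APC/C) ends the phase by destroying cyclin B and securin. Most of these genes are transcribed mainly in late S phase to mitosis, through promoters known for CCAAT boxes bound by NF-Y and for the cell cycle homology region (CHR), a short element read by the MuvB complex together with B-MYB and FOXM1. ID proteins, to which ID4 belongs, pair with E proteins and keep them from binding E-box DNA.

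The promoters below are those of Kif23, Prc1 and Smc2, the 3 members with the smallest adjusted p among those that fell and hold both a CHR and a CCAAT box, and of Ube2c, which had the largest adjusted p. Each stretch is 180 bases, from base -150 to base 30 counted from the RefSeq start (GRCm38.p6), read 5′ to 3′ along the gene. Capitals mark CHR letters (TTTGAA) and CCAAT letters, on either strand. They lie at chr9:61946770-61946949 on the minus strand for Kif23, chr7:80294301-80294480 on the plus strand for Prc1, chr4:52439071-52439250 on the plus strand for Smc2 and chr2:164769779-164769958 on the plus strand for Ube2c.
Kif23: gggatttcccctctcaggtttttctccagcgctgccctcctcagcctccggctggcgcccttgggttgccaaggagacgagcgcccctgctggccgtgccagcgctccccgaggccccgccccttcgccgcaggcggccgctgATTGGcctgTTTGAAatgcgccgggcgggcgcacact
Prc1: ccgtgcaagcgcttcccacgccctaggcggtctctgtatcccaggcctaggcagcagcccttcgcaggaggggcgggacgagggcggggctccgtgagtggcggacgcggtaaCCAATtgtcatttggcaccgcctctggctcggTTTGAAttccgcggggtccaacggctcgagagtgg
Smc2: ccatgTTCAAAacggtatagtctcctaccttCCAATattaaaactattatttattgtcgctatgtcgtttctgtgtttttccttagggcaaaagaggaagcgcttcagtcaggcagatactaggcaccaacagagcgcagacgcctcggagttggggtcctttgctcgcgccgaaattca
Ube2c: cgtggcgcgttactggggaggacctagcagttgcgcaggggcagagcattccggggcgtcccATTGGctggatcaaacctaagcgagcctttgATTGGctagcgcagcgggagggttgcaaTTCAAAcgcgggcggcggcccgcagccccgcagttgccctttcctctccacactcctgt
In Kif23 the CHR spans bases 3 to 8 after the RefSeq start, beside a CCAAT box at -7 to -3. The GENCODE start of Kif23, at 61946774, lies further along the gene, so that both elements lie before it. In Prc1 the CHR spans -5 to 1, with a CCAAT box at -37 to -33. Those marked in Smc2 lie further from the start, with a CHR at -145 to -140 and a CCAAT box at -119 to -115. Another Smc2 CHR, at 27 to 32, runs past the end of the stretch and is not marked. The GENCODE start of Smc2, at 52439243, lies just before this unmarked CHR. Ube2c, which was not called, holds the same letters, with a CHR at -29 to -24.

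The siRNA target was lowered. Id4 stood at 59.4, 62.2 and 48.2 CPM (counts scaled to library size with TMM factors) in siID4 replicates 1 to 3, against 135, 114 and 118 CPM in NT replicates 1 to 3 (log2 fold change, siID4 minus NT, -1.11, SE 0.10, edgeR adjusted p = 8.65e-04). The arms did not overlap. Libraries held about 21701100 to 23062500 counts in the siID4 arm and 19216700 to 23095600 in the NT arm, and member counts lay between 410 for Cdc25c and 17927 for Mki67 in a library.

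Of the 49 mitotic genes, 27 fell and 0 rose at an edgeR adjusted p under 0.05, or 55.1%, where 4.93% of the 13941 genes tested were called lower and 4.62% higher. At an unadjusted p under 0.05, 45 members were lower and 0 higher, and the share of all genes at that threshold was not counted. DESeq2 called 31 members lower and 0 higher, where it called 5.72% of all genes tested lower and 5.00% higher. All 49 log2 fold changes were below 0, from -0.53 for Kif23 to -0.06 for Ube2c, with a median of -0.24 against 0.00 over all genes tested. Members are well expressed, and among the 7583 genes at or above the mean CPM of the lowest member 7.64% were called lower and 4.8% higher. With library totals in place of TMM the calls over all genes were 564 lower and 829 higher, against 687 lower and 644 higher with TMM. In 39 members the highest siID4 library lay below the lowest NT library (79.6%), as it did for 15.4% of all genes tested. In a bulk sample, fewer cells in G2 or mitosis and less mRNA per such cell cannot be told apart.

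Same-numbered libraries of the arms varied together, more weakly in number 2 (correlation across genes 0.14) than in numbers 1 and 3 (0.42 and 0.38). In 48 of 49 members siID4 lay below NT in each of the 3 numbers (98.0%), as it did for 29.6% of all genes tested. The member median of these differences was -0.25, -0.24 and -0.21 log2 units in numbers 1, 2 and 3. With the replicate number as a block 48 members were called lower and 0 higher, where 18.3% of all genes tested were called lower and 17.9% higher. Ube2c alone was not called in that fit (adjusted p = 0.193). The count depended on single libraries when the block was left out. It was 15 without siID4 replicate 1, 8 without siID4 replicate 2, 16 without NT replicate 2 and 15 without NT replicate 3. Calls over all genes tested fell in the same fits, to 3.41%, 1.58%, 2.39% and 3.41% lower, from 4.93% with all libraries. The 8 members called in each of the 6 fits without a library were Kif23, Prc1, Smc2, Mki67, Hmmr, Kif11, Anln and Cdc25c. Cdk1, Cdc25b, Aurkb, Ttk, Mad2l1, Ect2 and Ncapg each lost the call without siID4 replicate 1, siID4 replicate 2, NT replicate 2 or NT replicate 3, and Birc5, Kif4, Kif18a and Kif22 in 5 of the 6 fits.

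**Figure D1:**
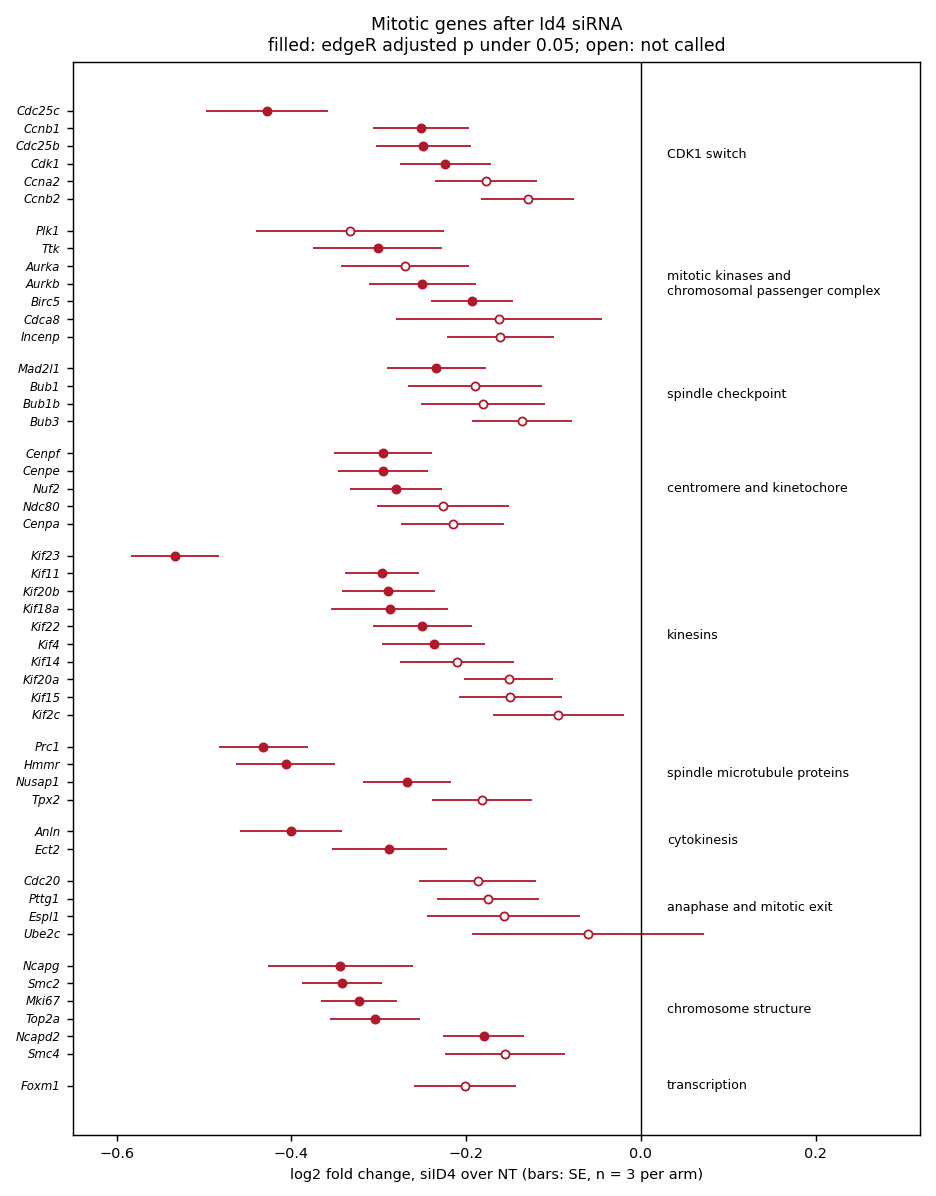
Log2 fold change, siID4 over NT, of each of the 49 mitotic genes by role (points; bars are SE, n = 3 libraries per arm). Filled points have an edgeR adjusted p under 0.05. All 49 points lie left of 0, with Kif23 at -0.53 and Ube2c at -0.06.

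Of 6 genes of the CDK1 switch, 4 fell and 2 did not pass. Cdc25c, a phosphatase that removes the inhibitory phosphates from CDK1, stood at 19.0, 18.6 and 20.0 CPM in siID4 cells, against 26.5, 25.7 and 25.3 CPM in NT cells (log2 fold change -0.43, SE 0.07, adjusted p = 0.00663). The lowest NT library was above the highest siID4 library by more than the spread within either arm. Ccnb1, the cyclin B1 gene, stood at 143, 130 and 143 CPM in siID4 cells, against 168, 158 and 169 CPM in NT cells (-0.25, SE 0.05, adjusted p = 0.0221), with replicate 2 the lowest in both arms. Cdc25b, whose product acts on CDK1 at mitosis entry, stood at 66.5, 64.0 and 70.2 CPM in siID4 cells, against 80.0, 76.8 and 81.7 CPM in NT cells (-0.25, SE 0.05, adjusted p = 0.0223). Its arms did not overlap. Cdk1 itself fell by 0.22 on the log2 scale (adjusted p = 0.0292). Cdk1 was the most abundant member per unit of length, at a mean of 329 TPM (a level corrected for transcript length) in siID4 cells and 371 TPM in NT cells. Ccna2, the cyclin of S phase and G2, had a log2 difference of -0.18 (adjusted p = 0.0901). Ccnb2, another cyclin B, stood at 66.9, 66.3 and 71.8 CPM in siID4 cells, against 76.4, 72.9 and 74.9 CPM in NT cells (-0.13, SE 0.05, adjusted p = 0.161), with a gap between the arms smaller than the spread within either. Both passed with the block (adjusted p = 1.95e-06 and 0.00621). Without siID4 replicate 2, Ccnb1 (adjusted p = 0.102), Cdc25b (0.120) and Cdk1 (0.143) did not pass. Cdc25b and Cdk1 were also lost without siID4 replicate 1 (0.0584 and 0.0827), NT replicate 2 (0.0572 and 0.0722) or NT replicate 3 (0.0657 and 0.0776), and Ccnb1 without NT replicate 3 (0.0562).

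Among mitotic kinases and the chromosomal passenger complex, which pairs Aurora B with INCENP, survivin and borealin, 3 of 7 fell. Birc5, which encodes survivin, stood at 150, 140 and 150 CPM in siID4 cells, against 171, 170 and 163 CPM in NT cells (log2 fold change -0.19, SE 0.05, adjusted p = 0.0338). Ttk, the checkpoint kinase MPS1, stood at 40.7, 39.9 and 46.6 CPM in siID4 cells, against 49.7, 53.4 and 53.5 CPM in NT cells (-0.30, SE 0.07, adjusted p = 0.0352). Replicate 2 was the lowest siID4 library in both. Aurkb, the kinase of that complex, stood at 62.3, 66.2 and 71.1 CPM in siID4 cells, against 76.6, 78.2 and 82.6 CPM in NT cells (-0.25, SE 0.06, adjusted p = 0.0353). In all 3, as in Plk1 and Aurka, every siID4 library lay below every NT library. Plk1, which encodes the Polo-like kinase of mitosis entry and spindle assembly, had a larger difference and a wider spread. It stood at 96.4, 93.7 and 117 CPM in siID4 cells, against 122, 118 and 147 CPM in NT cells (-0.33, SE 0.11, adjusted p = 0.0937), with replicate 3 the highest in both arms. Plk1 passed with the block (adjusted p = 4.09e-10), by DESeq2 (0.0225) and without siID4 replicate 3 (0.0290). Aurka, the spindle pole kinase, missed the threshold narrowly (-0.27, adjusted p = 0.0504, and 5.19e-07 with the block). Incenp, the gene of INCENP, had a log2 difference of -0.16 (adjusted p = 0.135). Cdca8, which encodes borealin, stood at 58.6, 67.3 and 75.8 CPM in siID4 cells, against 68.4, 69.7 and 87.3 CPM in NT cells (-0.16, SE 0.12, adjusted p = 0.443), and its arms overlapped. The 3 calls were each lost without siID4 replicate 2, where the adjusted p was 0.147 for Aurkb, 0.163 for Ttk and 0.155 for Birc5. With library totals in place of TMM, Aurkb (adjusted p = 0.0533) and Birc5 (0.0535) did not pass.

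Of 4 spindle checkpoint genes, 1 fell. Mad2l1, which encodes the MAD2 protein that restrains CDC20, stood at 79.4, 78.0 and 86.8 CPM in siID4 cells, against 92.0, 95.8 and 99.4 CPM in NT cells (log2 fold change -0.23, SE 0.06, adjusted p = 0.0343, and 0.163 without siID4 replicate 2). The arms did not overlap. Bub1, Bub1b and Bub3, whose products gather at unattached kinetochores, had log2 differences of -0.19, -0.18 and -0.14 (adjusted p from 0.147 to 0.170), and in each the arms overlapped. Bub1b stood at 113, 126 and 132 CPM in siID4 cells, against 131, 138 and 151 CPM in NT cells. Bub1 stood at 64.1, 69.4 and 75.1 CPM in siID4 cells, against 73.0, 78.8 and 85.9 CPM in NT cells. In both, replicate 1 was the lowest and replicate 3 the highest of either arm. Bub3 stood at 132, 131 and 142 CPM in siID4 cells, against 141, 145 and 158 CPM in NT cells, so that replicate 3 of the siID4 arm passed replicate 1 of the NT arm. With the block all 4 were called lower, where 18.3% of all genes tested were.

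Of 5 kinetochore genes found by symbol, 3 fell, by similar amounts. Cenpe, a kinesin that carries chromosomes to the spindle equator, stood at 157, 160 and 174 CPM in siID4 cells, against 206, 198 and 199 CPM in NT cells (log2 fold change -0.29, SE 0.05, adjusted p = 0.00868). Nuf2, a subunit gene of the microtubule-binding NDC80 complex, stood at 73.1, 73.2 and 79.6 CPM in siID4 cells, against 90.3, 89.9 and 94.1 CPM in NT cells (-0.28, SE 0.05, adjusted p = 0.0120). Cenpf, a large outer kinetochore protein gene, stood at 177, 182 and 203 CPM in siID4 cells, against 230, 226 and 234 CPM in NT cells (-0.30, SE 0.06, adjusted p = 0.0128). The arms did not overlap in any of these 3, nor in Ndc80 and Cenpa, where siID4 lay wholly below NT in 15.4% of all genes tested. Ndc80, the partner of NUF2 in that complex, stood at 38.6, 42.3 and 45.4 CPM in siID4 cells, against 46.8, 48.9 and 52.1 CPM in NT cells (-0.23, SE 0.08, adjusted p = 0.0947). Cenpa, the histone H3 variant of centromeres, had a log2 difference of -0.22 (adjusted p = 0.0524). Both passed with the block (adjusted p = 3.70e-04 and 2.04e-06). Knl1, the scaffold for BUB proteins, stood at 61.7, 65.4 and 67.6 CPM in siID4 cells, against 78.7, 84.1 and 84.9 CPM in NT cells (-0.35, SE 0.06, adjusted p = 0.00611). Knl1 passed in each fit without a library. Without siID4 replicate 2, Cenpe (adjusted p = 0.0578), Cenpf (0.0807) and Nuf2 (0.0785) did not pass.

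Kif23 changed most among the members. Of 10 mitotic kinesin genes, 6 fell. Kif23 encodes MKLP1, the motor of the centralspindlin complex that bundles antiparallel microtubules between separating chromosomes. The gene (ENSMUSG00000032254, chromosome 9, 61915905 to 61946774, minus strand, GRCm38, protein-coding) stood at 74.5, 71.8 and 78.5 CPM in siID4 cells, against 110, 106 and 109 CPM in NT cells. The mean was 74.9 ± 3.34 CPM in siID4 cells and 108 ± 2.16 CPM in NT cells (SD, n = 3 each), a level lower by 30.9% (log2 fold change -0.53, SE 0.05, edgeR adjusted p = 6.63e-04). The gap between the arms was several times the spread within them. Kif11, the motor Eg5 that pushes spindle poles apart, stood at 116, 113 and 119 CPM in siID4 cells, against 143, 142 and 143 CPM in NT cells (-0.30, SE 0.04, adjusted p = 0.00404).
Kif20b, a cytokinesis kinesin, stood at 89.6, 98.4 and 100.2 CPM in siID4 cells, against 116, 117 and 119.8 CPM in NT cells, with no overlap. Kif20b, Kif18a, which dampens chromosome oscillation, Kif22, a chromosome arm motor, and Kif4, the chromokinesin that works with PRC1, fell by 0.29, 0.29, 0.25 and 0.24 on the log2 scale. Their adjusted p were 0.0112, 0.0293, 0.0268 and 0.0374, and without siID4 replicate 2 they were 0.0508, 0.142, 0.135 and 0.166. Kif4 also narrowly missed the threshold with library totals in place of TMM. The remaining 4, Kif14, Kif20a, Kif15 and Kif2c, had log2 fold changes from -0.21 to -0.09. Kif2c, a microtubule depolymerase of centromeres, overlapped between the arms, with 65.7, 70.8 and 78.9 CPM in siID4 cells against 74.8, 73.3 and 81.7 CPM in NT cells (adjusted p = 0.479, and 0.0417 with the block). All 10 were called lower with the block, where 18.3% of all genes tested were.

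Of 4 genes of spindle microtubule proteins, 3 fell. Prc1, the bundler of midzone microtubules, stood at 152, 153 and 156 CPM in siID4 cells, against 201, 199 and 221 CPM in NT cells (log2 fold change -0.43, SE 0.05, adjusted p = 0.00186). The siID4 libraries were almost level, and NT replicate 3 was the highest. Hmmr, a spindle and hyaluronan-binding protein gene, stood at 83.4, 90.7 and 92.4 CPM in siID4 cells, against 113, 117 and 123 CPM in NT cells (-0.41, SE 0.06, adjusted p = 0.00361). Nusap1, a spindle microtubule protein gene, stood at 59.5, 57.0 and 57.2 CPM in siID4 cells, against 70.5, 68.2 and 70.4 CPM in NT cells (-0.27, SE 0.05, adjusted p = 0.0120, and 0.0734 without siID4 replicate 2). In these 3, and in Tpx2, the arms did not overlap. Tpx2, the activator of Aurora A, stood at 142, 151 and 161 CPM in siID4 cells, against 165, 171 and 179 CPM in NT cells (-0.18, SE 0.06, adjusted p = 0.0797, and 9.24e-06 with the block).
Both cytokinesis members fell. Anln, which encodes the ring scaffold anillin, stood at 266, 269 and 294 CPM in siID4 cells, against 350, 354 and 390 CPM in NT cells (-0.40, SE 0.06, adjusted p = 0.00440). Ect2, the exchange factor that activates RhoA at the furrow, stood at 107, 118 and 127 CPM in siID4 cells, against 139, 142 and 150 CPM in NT cells (-0.29, SE 0.07, adjusted p = 0.0264, and 0.115 without siID4 replicate 2). In both genes replicate 3 was the highest of its arm. Racgap1, the partner of MKLP1 in centralspindlin and not a member, fell as well, to 185, 187 and 194 CPM in siID4 cells, against 229, 231 and 240 CPM in NT cells (-0.31, SE 0.04, adjusted p = 0.00400).

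**Figure D2:**
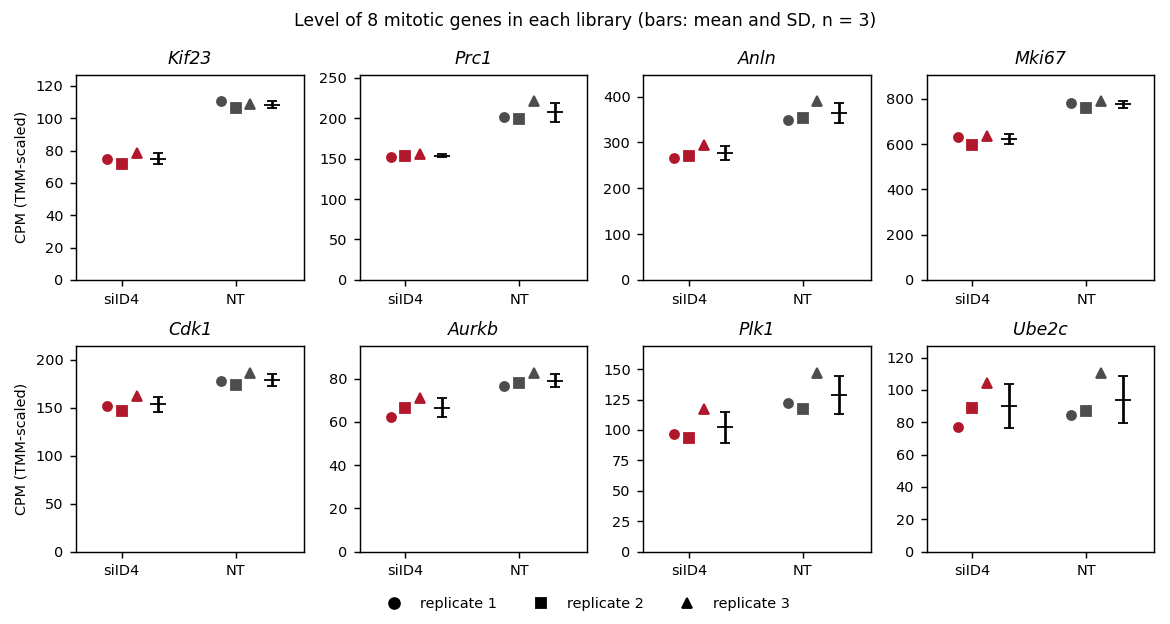
Level in CPM of 8 mitotic genes in each of the 6 libraries, siID4 left and NT right (symbols mark the replicate; bars are mean and SD, n = 3). Kif23, Prc1, Anln, Mki67, Cdk1, Aurkb and Plk1 do not overlap between the arms, and Ube2c does.

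Genes of anaphase and mitotic exit showed no call. Of 4, 0 fell and 0 rose in the edgeR test, with 2 lower at an unadjusted p under 0.05, 0 called by DESeq2 and 3 called lower with the block. Over all genes tested, 4.93% were called lower by edgeR, 5.72% by DESeq2 and 18.3% with the block. The share at an unadjusted p was not counted. Pttg1 encodes securin, which holds the cohesin protease separase in check. It stood at 38.5, 38.5 and 38.7 CPM in siID4 cells, against 42.0, 44.9 and 43.8 CPM in NT cells (log2 fold change -0.18, adjusted p = 0.0963, and 0.00877 with the block). Cdc20, the mitotic activator of the APC/C, stood at 107, 106 and 117 CPM in siID4 cells, against 123, 116 and 136 CPM in NT cells (-0.19, adjusted p = 0.115). Espl1, which encodes separase, stood at 75.7, 89.7 and 94.0 CPM in siID4 cells, against 88.4, 97.4 and 103 CPM in NT cells (-0.16, adjusted p = 0.306). The arms of Cdc20 and Espl1 overlapped, and those of Pttg1 did not. Ube2c, the E2 enzyme of the APC/C, stood at 77.2, 89.1 and 104 CPM in siID4 cells, against 84.5, 87.0 and 110 CPM in NT cells (-0.06, SE 0.13, adjusted p = 0.829). Replicates of one arm differed more than the arms did, and the sign turned without siID4 replicate 1 (0.04) and without NT replicate 3 (0.07). Whether this group differs from the other mitotic genes was not tested.

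Of 6 chromosome structure genes, 5 fell. Mki67 codes for the Ki-67 protein that coats mitotic chromosomes and marks cycling cells. It was the member with the highest CPM, at 632, 595 and 636 in siID4 cells, against 782, 759 and 789 CPM in NT cells (log2 fold change -0.32, SE 0.04, adjusted p = 0.00326). Smc2, the condensin ATPase shared by both condensins, stood at 141, 145 and 152 CPM in siID4 cells, against 181, 186 and 189 CPM in NT cells (-0.34, SE 0.05, adjusted p = 0.00320). Top2a, the topoisomerase that untangles sister chromatids, stood at 517, 525 and 566 CPM in siID4 cells, against 646, 645 and 694 CPM in NT cells (-0.30, SE 0.05, adjusted p = 0.00762, and 0.0546 without siID4 replicate 2).
The condensin I subunit genes Ncapg and Ncapd2 fell by 0.34 and 0.18 (adjusted p = 0.0338 and 0.0420). Ncapd2 passed in none of the 6 fits without a library (adjusted p up to 0.186 without siID4 replicate 2), and Ncapg reached 0.110 without siID4 replicate 2. Smc4, the ATPase paired with SMC2, stood at 228, 254 and 273 CPM in siID4 cells, against 267, 278 and 296 CPM in NT cells (-0.16, SE 0.07, adjusted p = 0.193, and 4.42e-05 with the block). Its arms overlapped, unlike those of Smc2.
Foxm1, the forkhead factor that activates many of these genes, stood at 165, 163 and 176 CPM in siID4 cells, against 183, 189 and 208 CPM in NT cells (-0.20, SE 0.06, adjusted p = 0.0631, and 1.97e-06 with the block). The arms did not overlap, and DESeq2 called it lower (adjusted p = 0.0406).

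The summed level of the 49 was 6094, 6156 and 6656 CPM in siID4 replicates 1 to 3, against 7379, 7363 and 7853 CPM in NT replicates 1 to 3. Replicate 3 was the highest in both arms. NT replicate 3 held the highest of the 6 levels for 38 of 49 members, and siID4 replicates 1 and 2 held the lowest for 26 and 23. The median deviation of the members from their own mean over 6 libraries was -0.18, -0.15 and -0.03 log2 units in siID4 libraries and 0.10, 0.10 and 0.18 in NT libraries. Over all genes tested these medians lay between -0.00 and 0.01.

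**Figure D3:**
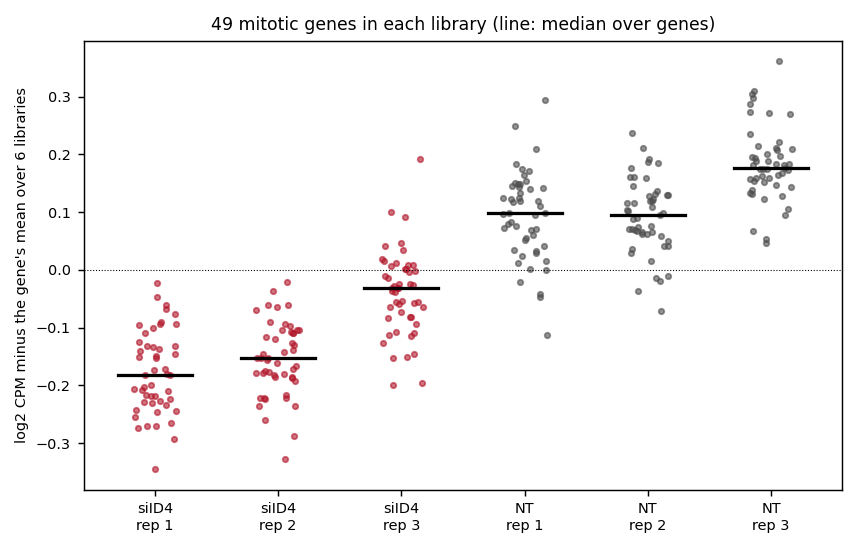
Deviation of each of the 49 mitotic genes from its own mean over 6 libraries, in log2 CPM, by library (points; the line is the median). The medians of the 3 siID4 libraries are below 0 and those of the 3 NT libraries above, with replicate 3 the highest in each arm.

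Other features of the libraries moved with the arms, but the summed epithelial markers overlapped between them. Epithelial markers were present (Krt14 at 868 CPM and Krt5 at 727 CPM in siID4 cells, against 936 and 822 CPM in NT cells). Of 8 epithelial markers, 6 had a log2 fold change below 0 (median -0.15). Of the 8, 1 fell and 2 rose (4 and 2 with the block), the 2 higher calls were lost without siID4 replicate 1 or 2 or NT replicate 2 or 3, the lower one without siID4 replicate 2 or 3, and they summed to between 2139 and 2481 CPM in siID4 libraries and 2321 and 2655 CPM in NT libraries. Of 17 interferon-inducible genes 7 rose and 1 fell (11 and 1 with the block, 13 and 0 by DESeq2, 13 and 0 without NT replicate 1, 11 and 1 without NT replicate 3), with sums of 849 to 1010 CPM in siID4 libraries and 312 to 576 CPM in NT libraries. Of 11 fibroblast markers 10 were tested, and 4 rose and 1 fell (8 and 2 with the block), with sums of 12606 to 14841 CPM in siID4 libraries and 10038 to 11909 CPM in NT libraries. A single fibroblast marker reached 215803 counts in a library, so that the sums rest largely on that gene, while Lum reached at most 3. The median log2 fold change of the fibroblast markers was 0.50, with 2 of the 10 tested below 0. Markers of leukocytes, endothelial cells and adipocytes were low, with at most 59, 19 and 7 counts in a library. Of 6 leukocyte markers 2 were tested and 0 called by edgeR, DESeq2 or the block, and they summed to 3.08 to 3.73 CPM in siID4 libraries and 2.86 to 3.01 CPM in NT libraries. Of 7 endothelial markers 1 was tested, Kdr, which had a log2 difference of 1.35 (adjusted p = 0.0742) and was called higher with the block and without NT replicate 3. It stood at 0.570 to 0.861 CPM in siID4 libraries and 0.157 to 0.440 CPM in NT libraries. Every siID4 library was above every NT library for Kdr and for the leukocyte sum, both at levels near the floor. Of the 2 leukocyte markers tested, 1 had every siID4 library above every NT library, as had 2164 of the 13941 genes tested. Among defining markers Ptprc and Cdh5 reached at most 2 counts and Adipoq 1, and Tie1 and Plin1 were at 0 in all 6 libraries. Over all genes tested, 4.93% were called lower and 4.62% higher (18.3% and 17.9% with the block). The part of these lists in the result was not tested.

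Some genes of the spindle and the kinetochore beyond the members fell as well, where 4.93% of all genes tested were called lower (18.3% with the block). Of 29 further genes of spindle, centrosome and cytokinesis, 9 fell and 0 rose (median log2 fold change -0.19, 23 lower and 1 higher with the block). The count was 2 without siID4 replicate 2, 4 without siID4 replicate 1 or NT replicate 2 and 5 without NT replicate 3. Racgap1, Spag5, which encodes the spindle protein astrin, and Cdca3, a trigger of mitosis entry, had the smallest adjusted p. Spag5 stood at 79.5, 81.6 and 84.7 CPM in siID4 cells, against 101, 99.1 and 99.7 CPM in NT cells (-0.28, adjusted p = 0.00628), and Cdca3 fell by 0.30 (0.0158, and 0.0893 without siID4 replicate 2). Of 38 further kinetochore and centromere genes, 5 fell and 0 rose (median -0.13, 17 lower and 1 higher with the block, 2 lower without siID4 replicate 2). Mis18a, which licenses centromeres for new CENP-A, stood at 14.2, 12.8 and 13.7 CPM in siID4 cells, against 20.1, 19.2 and 22.6 CPM in NT cells (-0.61, SE 0.09, adjusted p = 0.00485). Spdl1, which recruits dynein to kinetochores, and Mad1l1, the partner of MAD2, fell by 0.39 and 0.29 (adjusted p = 0.00608 and 0.00927, with Mad1l1 at 0.0648 without siID4 replicate 2).

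Of 17 APC/C subunits and regulators 0 were called by edgeR or DESeq2 (median -0.03, 4 lower and 3 higher with the block). Of 17 further condensin and cohesin genes the cohesin ATPase gene Smc1a fell (-0.23, adjusted p = 0.0110, and 0.0681 without siID4 replicate 2), and with the block 9 were lower and 2 higher. Of 12 brakes and partners of CDK1, Nek2, a centrosome kinase gene, fell (-0.29, adjusted p = 0.0379, 0.169 without siID4 replicate 2, 0.101 without siID4 replicate 1, 0.0711 without NT replicate 1 and 0.102 without NT replicate 3), and with the block 4 were lower. DESeq2 called 2 of each of these 2 lists lower. Over all genes tested, 4.93% were called lower and 4.62% higher by edgeR, 5.72% and 5.00% by DESeq2, and 18.3% and 17.9% with the block. Whether these lists differ from the members or from all genes was not tested.

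Kinesins outside mitosis gave calls in the other direction, where 4.62% of all genes tested were called higher (17.9% with the block). Of 26 genes of transport and other kinesins and their light chains, 0 fell and 5 rose (median 0.07, 3 lower and 9 higher with the block). The 5 came to 1 without NT replicate 2, 3 without NT replicate 1 and 2 without any other library. Kif26b, an atypical kinesin of cell adhesion and polarity, stood at 143, 124 and 125 CPM in siID4 cells, against 91.8, 80.1 and 80.4 CPM in NT cells (log2 fold change 0.63, SE 0.07, adjusted p = 0.00184). Every siID4 library lay above every NT library. Kif7, a ciliary regulator of Hedgehog signalling, and Kif5c, a conventional kinesin heavy chain gene, rose by 0.41 and 0.48 (adjusted p = 0.0148 and 0.0296). Kif7 did not pass without NT replicate 2 (0.0719), and Kif5c passed in none of the 6 fits without a library (up to 0.117 without siID4 replicate 2) nor by DESeq2 (0.0596). DESeq2 called 2 of the 26 higher. The 3 further kinesins of dividing cells, Kif18b, Kifc1 and Kif24, differed by -0.03, -0.23 and -0.21 on the log2 scale, at adjusted p between 0.147 and 0.837, and 2 were lower with the block.

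**Figure D4:**
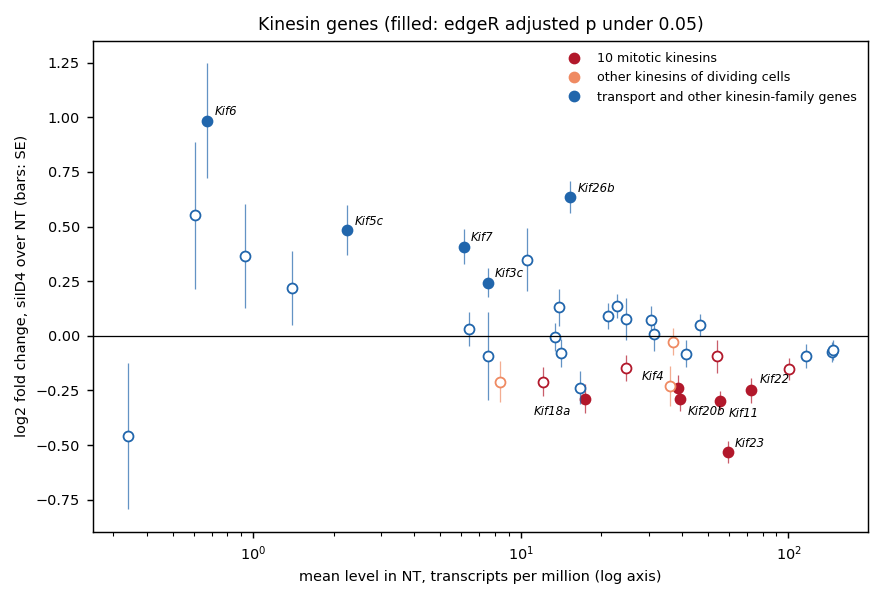
Log2 fold change, siID4 over NT, of kinesin genes against their mean level in NT libraries in TPM on a log axis (points; bars are SE, filled where the edgeR adjusted p is under 0.05). The 6 called mitotic kinesins lie below 0, with Kif23 at -0.53, and the 5 called transport and other kinesins lie above 0, with Kif26b at 0.63.

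Factors that govern mitotic promoters, arrest genes and replication genes gave the following counts. Over all genes tested, 4.93% were called lower and 4.62% higher (18.3% and 17.9% with the block). Of 17 genes of the MuvB and DREAM complexes and NF-Y, 4 fell and 0 rose (median -0.06, 7 lower and 2 higher with the block). The count was 1 without siID4 replicate 2 and 2 without siID4 replicate 3, NT replicate 1 or NT replicate 3. Rbl2, which encodes the pocket protein p130 of the repressor form of DREAM, stood at 23.2, 20.4 and 18.9 CPM in siID4 cells, against 34.6, 35.9 and 28.9 CPM in NT cells (log2 fold change -0.67, SE 0.11, adjusted p = 0.00598). Mybl1, which encodes A-MYB, and Lin54, the MuvB subunit that contacts the CHR, fell by 0.50 and 0.29 (adjusted p = 0.00868 and 0.0311, and 0.0546 and 0.137 without siID4 replicate 2). Lin54 was also lost without siID4 replicate 3 (0.0862), NT replicate 1 (0.0654) or NT replicate 3 (0.0797). Mybl2, the B-MYB gene, had a log2 difference of -0.17 (adjusted p = 0.177).
Of 12 p53 targets and arrest genes 1 rose (1 lower and 5 higher with the block, 2 higher by DESeq2 or without NT replicate 2, 3 higher without NT replicate 3). It was Ccng2, an atypical cyclin gene of cell cycle arrest, at 69.3, 78.9 and 66.2 CPM in siID4 cells, against 53.7, 54.6 and 54.1 CPM in NT cells (0.40, SE 0.07, adjusted p = 0.00909). Cdkn1a, which encodes the CDK inhibitor p21, had a log2 difference of -0.07 with a wide error (SE 0.31, adjusted p = 0.914). Of 22 DNA replication genes 4 fell and 0 rose (median -0.14, 15 lower and 1 higher with the block). The count was 0 without siID4 replicate 2, 1 without NT replicate 2, 2 without siID4 replicate 1, siID4 replicate 3 or NT replicate 3, and 4 without NT replicate 1.

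**Figure D5:**
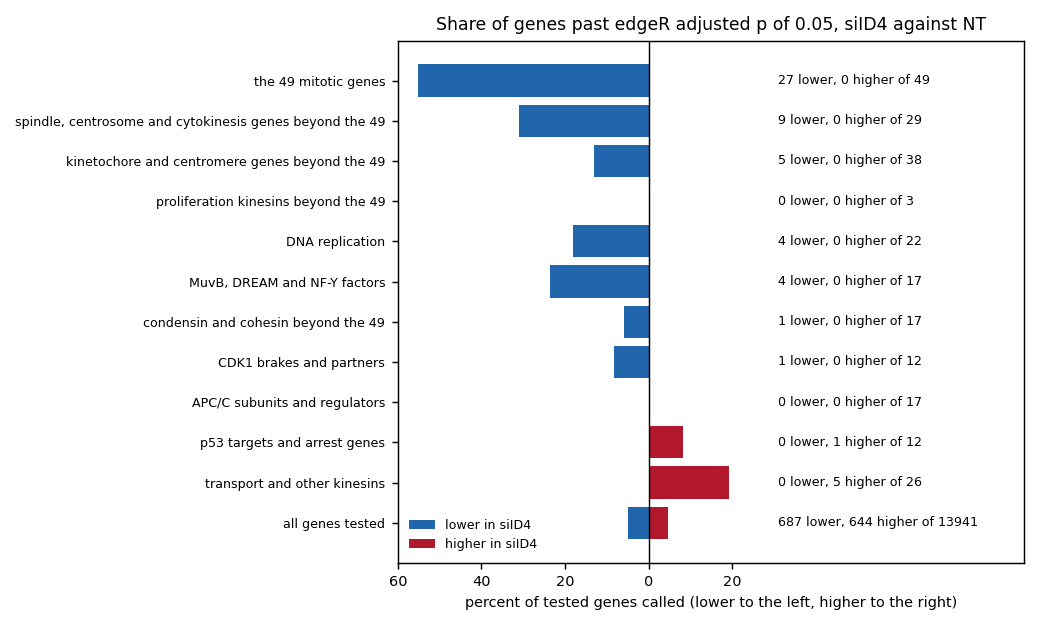
Percent of tested genes called lower (bars to the left) and higher (bars to the right) in siID4 against NT, for the 49 mitotic genes, 10 further lists and all genes tested (edgeR adjusted p under 0.05). Counts stand at the right, with 27 lower and 0 higher of the 49.

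Most mitotic members with a known promoter window shared CHR and CCAAT letters. Windows of 300 bases, 250 before and 50 after the RefSeq start, were found for 41 of the 49 by symbol. A CHR, searched as TTTGAA or TTCGAA on both strands, lay in the windows of 33 of 41 members (80.5%) and of 21.7% of all 27025 genes with a window. A CCAAT box, searched as CCAAT on both strands, lay in 30 of 41 (73.2%) and in 41.1% of all genes. Both lay in 28 of 41 (68.3%) and in 8.6% of all genes. Of the 28 members with both, 16 fell (median log2 fold change -0.25), and of the 13 without, 9 fell (median -0.25). An E-box of the kind that E proteins bind, searched as CAGCTG or CAGGTG on both strands, lay in 9 of 41 members (22.0%) and in 35.9% of all genes. Of the 9, 8 fell (median -0.29), and of the 32 without, 17 fell (median -0.24). A gene with several windows was counted as holding the letters if any window did. These are matches of letters and not sites of binding, and no test of the differences was made.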

How the data were processed

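RNA sequencing of Comma-Dβ cells gave 6 libraries, 3 per arm, made from 1 µg of RNA with a strand-marking kit. The authors deposited expected counts per gene, with fractions, and a gene length per row. Cutadapt, STAR, RSEM and the mm10 build are named, without versions, per the submitters' processing notes. Left as not given in the sources used here were the counting strand, the annotation release and the rule for filtering the table. Expected counts were rounded to whole numbers. Of 25655 genes, 2882 were at 0 in every library. Total counts ran from about 19216700 to 23095600, and the biological coefficient of variation was 7.83%.

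Arms were compared by the quasi-likelihood test of edgeR 4.0.16 in R 4.3.3, with TMM scaling, filterByExpr (13941 genes) and group as the only term, with Benjamini-Hochberg adjustment over all genes tested. Adjusted p-values are from this test unless another is named. SE were derived from the F statistic. An exact permutation test of 3 against 3 libraries cannot go below p = 0.1. Levels are CPM. TPM were computed from counts and the deposited lengths. The fits were tested on simulated data.

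Same-numbered libraries deviated together from their arm means (correlation across genes 0.42, 0.14 and 0.38), and different numbers gave at most -0.02. Deviations from a mean cancel within each arm, so positive same-number values push those between different numbers below zero on average. The negative values are therefore not separate evidence of pairing. The numbers were taken as paired on the same-number values alone, of which 0.14 is weak, and fitted as a block in an alternative. The p-values of the block rest on that choice. The labels do not say what same-numbered libraries share, and p-values measure the spread between these samples.

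Other alternatives were DESeq2 1.42.0, limma-voom (limma 3.58.1), 3 other scalings, 2 other filters and leaving out each library. Members and lists were chosen with earlier results of these data known. All 49 members could be named. In each role group values per library are given for up to 3 tested members of smallest adjusted p and for the one of largest adjusted p, and in other lists up to 3 called genes are named. Values per library of Plk1 and Knl1 were added after their values were seen. Genes outside that rule, namely Kdr, Cdkn1a, Mybl2, Lum, Ptprc, Cdh5, Adipoq, Tie1, Plin1, Krt5, Krt14 and the 3 further kinesins, were named after their values were seen. Coordinates are from GENCODE M21 on GRCm38. Exons of several members overlap a gene on the other strand, Ccna2, Cdc20, Cdc25b, Prc1, Ube2c and Kif4 among them, so their counts depend on the strand setting, as do those of Id4, which overlaps A330033J07Rik. Promoter windows are from RefSeq on GRCm38.p6. Bases 261 to 300 lay in a GENCODE transcript of the gene in 35 of 45 member windows, but not in those of Kif23 and Smc2.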

Additional observations from a re-analysis of the deposited data

How the results depend on the processing

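Every alternative left 0 members called higher, and each fit of all 6 libraries left all 49 log2 fold changes below 0. The count of members called lower was 23 with library totals and 27 to 31 under the other scalings, filters and tests, and 48 with the replicate block. Without a library it ranged from 8 to 26, and the member median from -0.27 to -0.21. With library totals the median was -0.21, and the median over all genes moved to 0.03, so that the members lay -0.24 from it, as with TMM. Of the 27 calls, 8 held in each of the 6 fits without a library, 4 were lost with library totals and all 27 held with the block. Id4 passed under every alternative run, though its adjusted p was larger with the block (0.0113) than in the main edgeR fit (8.65e-04). Without a library Ube2c ranged from -0.18 to 0.073, with 0.040 without siID4 replicate 1 and 0.073 without NT replicate 3; the cause was not tested. Over all genes tested, calls lower without a library ranged from 224 to 665. A member that missed the threshold is not shown to be equal between the arms.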
